A study of Brassica napus with 112 samples.

Results

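BnaA03g18970D is the copy of ABI4 on chromosome A03 of Brassica napus (rapeseed), 1 of 101040 gene rows in the deposited table. It was taken because the study named it among the hub transcription factors of a gene regulatory network built from seeds sampled at 7 days after flowering (DAF). The study compared the spring hybrids Lumen and Solar in field plots over 2 seasons. Plots were either heated in portable chambers of polyethylene film with thermo-fans (Heat) or left without a chamber (Control). Because the film also enclosed the plants and took part of the light, warming cannot be told apart from enclosure and shading in the heated plots. Siliques, the pods of rapeseed, and the seeds within them were sampled at 14 and 7 DAF, so each tissue had 16 conditions, with 4 libraries each in season 2 and 3 each in season 1, 56 libraries a tissue. The study describes each replicate as material of its own field plot, but gives fewer replicates for the field layout of season 2 than the 4 libraries a condition seen here, so the 4 may not all be separate plots. Season 1 was laid out as a split plot and season 2 as randomized blocks, and the seasons also differed in the number of libraries, so weather, layout and library handling cannot be told apart in any season difference. Each library held whole tissue, so fewer cells of a type and less RNA per cell cannot be told apart.

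ABI4 (ABA INSENSITIVE 4) encodes a transcription factor of the AP2/ERF family. In Arabidopsis, abi4 mutants are less sensitive to abscisic acid, the hormone that accompanies seed maturation and holds back germination, and the gene also takes part in sugar signalling of seedlings. In Arabidopsis its transcript is found mainly in seeds and young seedlings.

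Values were whole numbers, treated here as a score, since their exact scaling is not given in the sources used here. A library's values added up to between 890194 and 1658548, near the fixed sum of TPM in most libraries but not in all. ABI4 was a weakly expressed gene on this scale. Its value was above 0 in every library of both tissues, with a mean of 5.31 ± 3.43 (SD), a median of 4.5 and a range of 1 to 16. A higher mean was found for 29.6% of the rows. Where ABI4 stood at 1, 2 or 3, a step of 1 unit was a large part of the value, and this coarse step limits what could be seen in the lowest conditions. Rapeseed carries near-identical copies of many genes on its A and C subgenomes, and pseudoalignment can divide reads between such copies, so the value assigned to this copy is uncertain to that extent.

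Libraries that stood apart were few. One seed library (heated Lumen, 7 DAF, season 2, replicate 4) had 66990 rows at 0 and one (Control Solar, 14 DAF, season 1, replicate 1) had 33.5% of its sum in its 10 highest genes. ABI4 stood at 14 in the first and at 3 in the second. Without both, the season difference in seeds was 1.32 (log2) against 1.34 with them, and the time difference was −0.80 against −0.82. Library sums averaged 1015000 ± 61120 in season 2 and 988000 ± 154700 in season 1 in seeds, and 995700 ± 57010 in season 2 and 1007000 ± 66380 in season 1 in siliques. Within conditions, the sum, the number of rows at 0 and the share of the 10 highest genes each followed ABI4 only weakly, with r between −0.12 and 0.13 over 56 libraries of a tissue. Across conditions, rows at 0 followed it more, with r = 0.37 in seeds and 0.36 in siliques. In seeds they averaged 48230 ± 3764 in season 2 and 47210 ± 1034 in season 1, and 46460 ± 1211 at 14 DAF and 49120 ± 3546 at 7 DAF. In siliques they averaged 47050 ± 1262 in season 2 and 46080 ± 641 in season 1. Whether the season and time differences of ABI4 depend on this was not tested.

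The largest differences of ABI4 in the design were those between seasons. In seeds it averaged 8.28 ± 3.67 in season 2 (n = 32) and 2.92 ± 1.25 in season 1 (n = 24). In siliques it averaged 6.06 ± 2.56 in season 2 (n = 32) and 2.75 ± 1.57 in season 1 (n = 24). The lowest, median and highest seed values were 3, 7.5 and 16 in season 2 and 1, 3 and 6 in season 1. The pooled ranges thus overlapped between 3 and 6, and the separation was clearer once sampling time and hybrid were held fixed.

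In seeds at 14 DAF, heated Lumen had 7, 7, 3 and 4 in season 2, against 2, 1 and 1 in season 1. Control Lumen seeds had 6, 8, 6 and 6 in season 2, against 1, 2 and 2 in season 1. In both of these conditions every library of season 2 lay above every library of season 1. Heated Solar seeds had 4, 3, 7 and 8 in season 2, against 2, 3 and 2 in season 1. Control Solar seeds had 5, 5, 5 and 6 in season 2, against 3, 3 and 3 in season 1. Of these 4 conditions only heated Solar overlapped, by a value of 3 in either season.

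In seeds at 7 DAF, heated Lumen had 8, 12, 9 and 14 in season 2, against 4, 3 and 4 in season 1. Control Lumen seeds had 16, 16, 10 and 6 in season 2, against 4, 3 and 6 in season 1. The value of 16 was the highest of all libraries, and both libraries that reached it were of this condition, whose other libraries spread down to a 6 that met the 6 of season 1. Heated Solar seeds had 11, 9, 6 and 13 in season 2, against 3, 2 and 4 in season 1. Control Solar seeds had 10, 11, 15 and 9 in season 2, against 4, 5 and 3 in season 1. The seasons were separate in 6 of the 8 seed conditions, and the mean was higher in season 2 in 8 of 8.

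**Figure D1:**
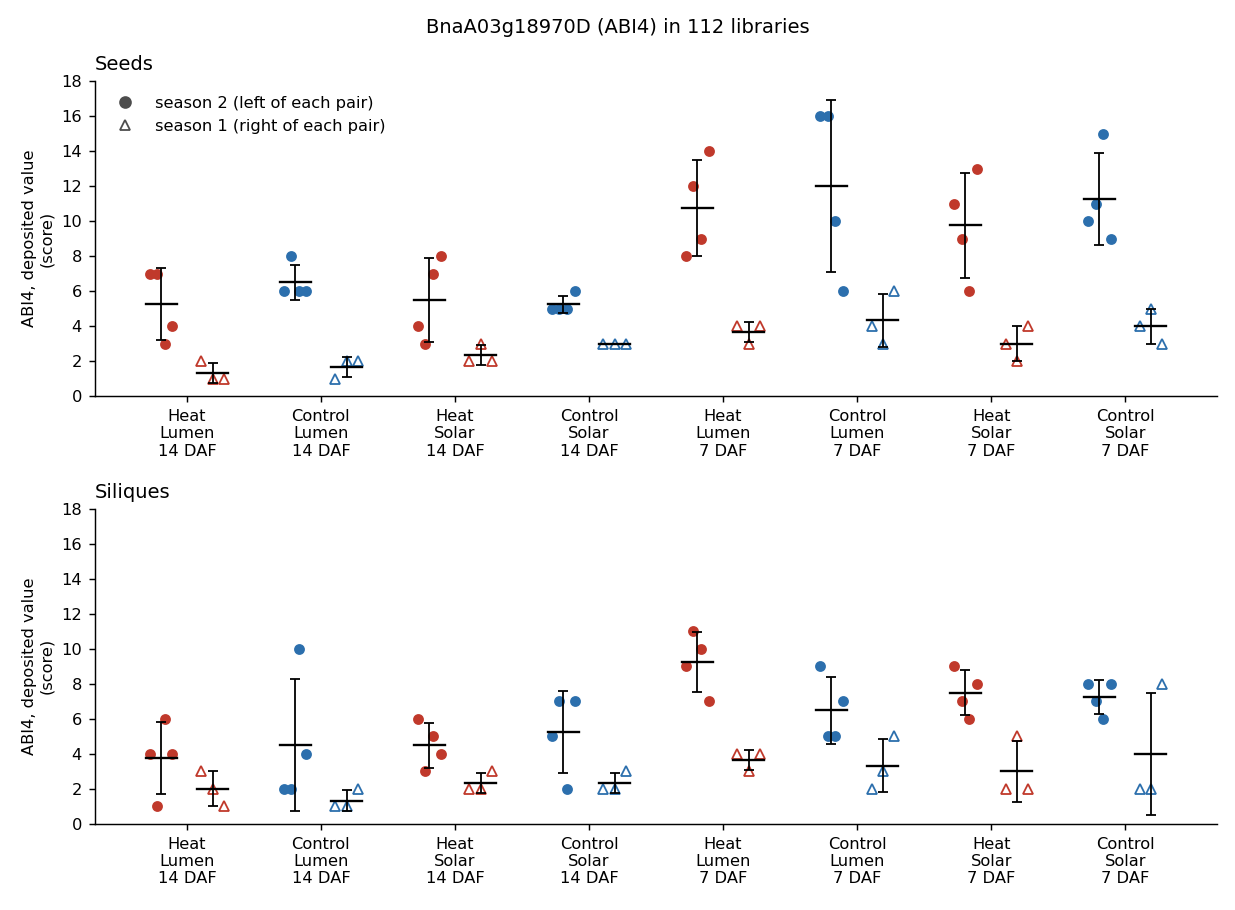
Deposited values of ABI4 in each library of seeds (top) and siliques (bottom), with 16 conditions a tissue (8 in each season). Red is Heat and blue is Control; filled circles are season 2 and open triangles season 1; black lines give the mean and bars the SD of each condition (n = 4 in season 2, n = 3 in season 1). In all 16 pairs of conditions the mean of season 2 is above that of season 1, and the highest values, 16 and 16, belong to Control Lumen seeds at 7 DAF in season 2.

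Siliques showed the same direction with more overlap. In siliques at 14 DAF, heated Lumen had 4, 1, 6 and 4 in season 2, against 3, 2 and 1 in season 1. Control Lumen siliques had 2, 2, 10 and 4 in season 2, against 1, 1 and 2 in season 1. A single library at 10 carried the mean of the season 2 libraries there. Heated Solar siliques had 6, 3, 5 and 4 in season 2, against 2, 2 and 3 in season 1. Control Solar siliques had 5, 7, 2 and 7 in season 2, against 2, 2 and 3 in season 1. The seasons overlapped in all 4 of these conditions.

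In siliques at 7 DAF, heated Lumen had 9, 11, 10 and 7 in season 2, against 4, 3 and 4 in season 1. Control Lumen siliques had 9, 5, 5 and 7 in season 2, against 2, 3 and 5 in season 1. The first of these was separate and the second met at 5. Heated Solar siliques had 9, 7, 6 and 8 in season 2, against 2, 5 and 2 in season 1. Control Solar siliques had 8, 7, 6 and 8 in season 2, against 2, 2 and 8 in season 1. The seasons were separate in 2 of the 8 silique conditions, both heated and at 7 DAF, and the mean was higher in season 2 in 8 of 8.

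The differences were tested on log2(value + 0.5) with limma, in a model of heat, hybrid, time and season with all their interactions, fitted in each tissue over all genes that passed the filter; fold changes are on this scale and understate the change of low values. Adjusted p is the Benjamini-Hochberg value over all genes tested, and a gene was called below 0.01. ABI4 was higher in season 2 by 1.34 ± 0.11 in seeds (SE, 95% confidence interval 1.12 to 1.56, 2.53-fold, adjusted p = 4.3e-13). In siliques it was higher in season 2 by 1.01 ± 0.15 (interval 0.70 to 1.32, 2.01-fold, adjusted p = 3.36e-06). Being called for season was common, since 27.3% of 53350 genes tested were called in seeds and 15.2% of 54752 in siliques. The size of the difference was less common. Only 0.870% of the genes tested in seeds and 1.60% in siliques differed between seasons by at least as much in either direction, while the median gene differed by −0.03 in seeds and −0.01 in siliques. Among genes of similar mean, the median difference was −0.05 over 5605 genes in seeds and −0.0036 over 5796 in siliques. ABI4 was taken as a hub picked from seed libraries that are among those tested here. Its season tests in seeds and its place among unselected genes there are therefore a description and not independent evidence. Siliques were outside the network, though of the same seasons and field experiments.

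**Figure D2:**
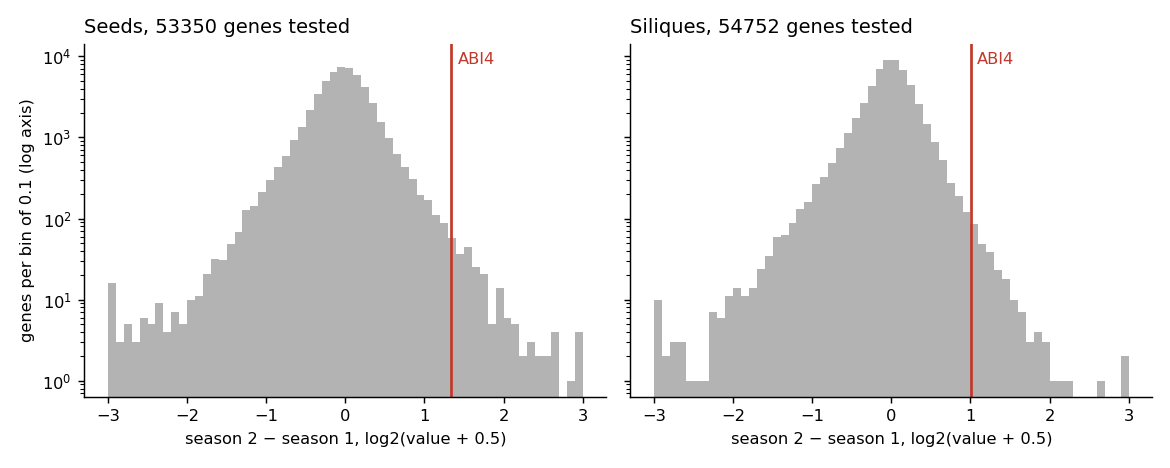
Distribution of the difference between seasons (season 2 minus season 1, log2(value + 0.5)) over all genes tested in seeds (left) and siliques (right), in bins of 0.1 with the number of genes on a log axis; differences beyond the axis are counted in the outermost bins. The red line marks ABI4, at 1.34 in seeds and 1.01 in siliques, with 0.870% and 1.60% of genes at least as far from 0 on either side. ABI4 was picked from seed libraries that are among those used, so its place in seeds is a description only.

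A permutation test that reassigned season labels within each combination of hybrid, treatment and time gave two-sided p = 1e-05 in seeds and in siliques, the smallest that 100000 resamples can give (adjusted over 8 such tests 2.67e-05). Each level of season was a single field season. Every season p-value here, of limma and of permutation, thus sets the difference against the spread of libraries within seasons, not between years. Taken condition by condition, 4 against 3 libraries cannot go below an exact p of 0.0571, and no season comparison of a single condition passed (lowest adjusted p = 0.114). In seeds the season difference was 1.52 in Lumen (interval 1.21 to 1.83) and 1.16 in Solar (interval 0.85 to 1.47). It was 1.26 at 14 DAF (interval 0.96 to 1.57) and 1.41 at 7 DAF (interval 1.10 to 1.72). These pairs did not differ beyond their error, with a hybrid by season term of 0.36 (interval −0.08 to 0.79, adjusted p = 0.317) and a time by season term of −0.15 (interval −0.59 to 0.29, adjusted p = 0.862). Lumen siliques had a season difference of 1.00 and Solar siliques of 1.01, and siliques of either hybrid differed by 0.90 at 14 DAF and by 1.11 at 7 DAF.

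Sampling time came next. ABI4 was lower at 14 DAF than at 7 DAF in both tissues and in both seasons. In seeds of season 2 it averaged 5.63 ± 1.59 at 14 DAF and 10.9 ± 3.19 at 7 DAF (n = 16 each). In seeds of season 1 it averaged 2.08 ± 0.79 at 14 DAF and 3.75 ± 1.06 at 7 DAF (n = 12 each). In season 2 the seed values ran from 3 to 8 with a median of 6 at 14 DAF and from 6 to 16 with a median of 10.5 at 7 DAF. The seed libraries of 14 DAF lay wholly below those of 7 DAF in 4 of 8 conditions, and the mean was lower in 8 of 8.

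In siliques of season 2, ABI4 averaged 4.50 ± 2.34 at 14 DAF and 7.63 ± 1.71 at 7 DAF (n = 16 each), and in siliques of season 1 it averaged 2.00 ± 0.74 at 14 DAF and 3.50 ± 1.83 at 7 DAF (n = 12 each). The silique mean was again lower at 14 DAF in 8 of 8 conditions, but the values were separate in only 1. On the log2 scale ABI4 fell by 0.82 ± 0.11 at 14 DAF in seeds (interval −1.04 to −0.60, 0.566-fold, adjusted p = 2.17e-08), where 37% of genes tested were called for time. It fell by 0.73 ± 0.15 at 14 DAF in siliques (interval −1.04 to −0.42, 0.604-fold, adjusted p = 0.000127), where 34.3% were called. The permutation test within conditions gave p = 1e-05 in seeds, the smallest it can give, and p = 4e-05 in siliques (adjusted 2.67e-05 and 8e-05). The study describes sampling of its plots at both times, so libraries of 14 and 7 DAF can come from the same plot. Limma and the permutation test treat those libraries as independent. A fall of this size was not rare, since 11.5% of genes in seeds and 10.8% in siliques differed at least as much between times.

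The fall was −1.03 in Lumen seeds (interval −1.34 to −0.72) and −0.61 in Solar seeds (interval −0.92 to −0.30). In siliques it was −0.98 in Lumen (interval −1.42 to −0.54) and −0.47 in Solar (interval −0.91 to −0.04). In limma, which was fitted over all libraries of a tissue, the hybrid by time term was −0.42 in seeds (interval −0.86 to 0.02, adjusted p = 0.321) and −0.51 in siliques (interval −1.13 to 0.11, adjusted p = 0.355), so the hybrids were not shown to differ in it. By season, the difference was −0.90 in season 2 and −0.75 in season 1 in seeds, and −0.83 in season 2 and −0.62 in season 1 in siliques. Taken alone, season 1 did not pass the threshold in siliques (adjusted p = 0.0575).

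**Figure D3:**
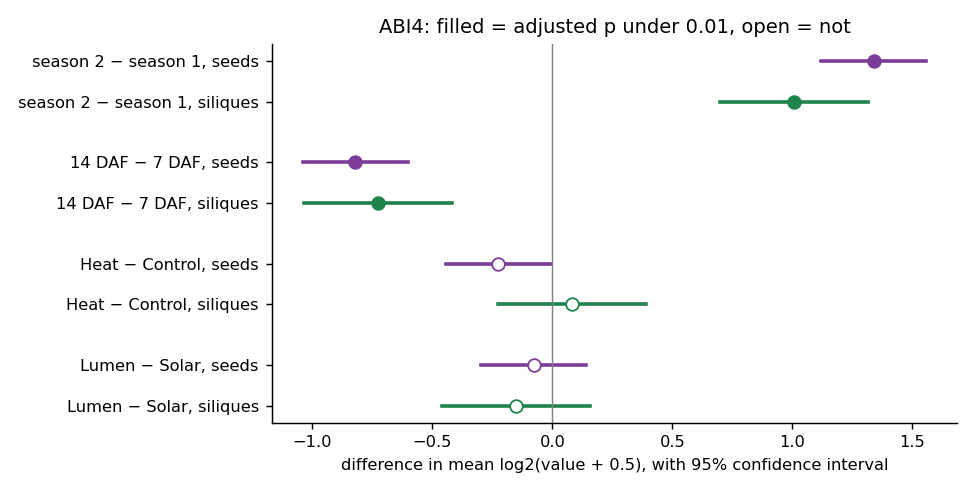
Differences of ABI4 in mean log2(value + 0.5) for season, time, heat and hybrid, in seeds (purple) and siliques (green), with 95% confidence intervals from limma. Filled points have an adjusted p below 0.01. The season differences of 1.34 and 1.01 and the time differences of −0.82 and −0.73 are filled. The heat and hybrid differences are not filled. The interval of the heat difference in seeds, −0.45 to −0.01, lies just below 0, and the intervals of the other unfilled points include 0.

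Heat was the treatment of the field experiment, and ABI4 was not called for it in either tissue. Seeds averaged 5.57 ± 3.74 in heated plots and 6.39 ± 4.13 in Control plots (n = 28 each), with lowest, median and highest values of 1, 4 and 14 under heat and 1, 5.5 and 16 in Control. Siliques averaged 4.75 ± 2.78 in heated plots and 4.54 ± 2.73 in Control plots (n = 28 each). Heated and Control libraries overlapped in 8 of 8 seed conditions. The difference in seeds was −0.23 ± 0.11 (interval −0.45 to −0.01), with an unadjusted p of 0.0432 and an adjusted p of 0.268, and 1.64% of genes tested were called for heat in seeds. A difference of this size or larger was found for 20.7% of those genes. The permutation test within conditions, of this gene alone, gave p = 0.028 (adjusted over 8 tests 0.0448), and the mean of log2 values was lower under heat in 8 of 8 seed conditions, by 0.03 to 0.38. The mean of the values themselves was lower in 7 and higher in 1, Solar at 14 DAF of season 2 (5.50 under heat and 5.25 in Control). In season 1 heat was assigned to main plots and the hybrids to sub-plots within them. The libraries and conditions of that season were thus not independent units of heat. In both seasons plots were sampled at 14 and 7 DAF, so conditions that differ only in time can share plots. Limma, the permutation test and the tallies treat libraries and conditions as independent, so no heat effect in seeds is read from these tests or tallies. In siliques the difference was 0.08 ± 0.15 (interval −0.23 to 0.39, adjusted p = 0.813), where 5.09% of genes were called, and the mean was higher under heat in 4, equal in 1 and lower in 3 of 8 conditions.

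Heat was also read within each stratum. Lumen seeds differed by −0.21 and Solar seeds by −0.24, seeds of 14 DAF by −0.24 and of 7 DAF by −0.22, and the difference was −0.17 in season 2 and −0.28 in season 1, and each of these 6 intervals included 0. In siliques the same 6 differences ran from −0.07 in Solar to 0.24 in Lumen. No heat comparison of a single condition had an exact p below 0.143, and the lowest adjusted p was 1.0.

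The hybrids did not differ in ABI4 beyond their error. Seeds averaged 6.11 ± 4.31 in Lumen and 5.86 ± 3.58 in Solar, and siliques 4.54 ± 3.02 in Lumen and 4.75 ± 2.46 in Solar (n = 28 each). The difference between Lumen and Solar was −0.08 ± 0.11 in seeds (interval −0.30 to 0.14, adjusted p = 0.594), of opposite sign to the difference of the plain means, and −0.15 ± 0.15 in siliques (interval −0.46 to 0.16, adjusted p = 0.441). Hybrid differences were otherwise frequent, with 36.9% of genes called in seeds and 36.8% in siliques. The mean was higher in Lumen in 5 and lower in 3 of 8 seed conditions, and higher in 2 and lower in 6 of 8 silique conditions. One condition was separate: Control seeds at 14 DAF of season 1 had 1, 2 and 2 in Lumen, against 3, 3 and 3 in Solar (exact p = 0.1, the smallest 3 against 3 allow).

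No interaction between a pair of factors was called for ABI4 in either tissue: of 12 such interactions, 0 had an adjusted p below 0.01 by limma and 0 had an unadjusted p below 0.05. In seeds the share of genes called was 0% for heat by hybrid, 0.114% for heat by time, 1.11% for hybrid by time, 0% for heat by season, 5.82% for hybrid by season and 0.0431% for time by season. In siliques it was 0% for heat by hybrid, 0% for heat by time, 5.07% for hybrid by time, 0.0237% for heat by season, 4.45% for hybrid by season and 2.37% for time by season. Where no gene was called, an unadjusted p below 0.05 was found for 3.5% of genes (heat by hybrid) and 7.51% (heat by season) in seeds, and for 6.81% (heat by hybrid) and 8.19% (heat by time) in siliques. Of the 10 terms of 3 or 4 factors, 1 had an unadjusted p below 0.05 for ABI4: hybrid by time by season in seeds, at 0.91 ± 0.43 (interval 0.03 to 1.78, adjusted p = 0.350), for which 0.208% of genes were called. The residual SD of ABI4 was 0.41 in seeds and 0.58 in siliques on the log2 scale, against a median over genes of 0.40 and 0.41, so its silique values were the noisier.

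Ordered by mean, the seed conditions began with Control Lumen at 7 DAF of season 2 (12.0 ± 4.90), followed by Control Solar (11.3 ± 2.63), heated Lumen (10.8 ± 2.75) and heated Solar (9.75 ± 2.99) of the same time and season. The 4 conditions at 14 DAF of season 2 came next, between 6.50 ± 1.00 and 5.25 ± 0.50, then those at 7 DAF of season 1, between 4.33 ± 1.53 and 3.00 ± 1.00, and the order ended with heated Lumen at 14 DAF of season 1 (1.33 ± 0.58). Of the 30 pairs of neighbours in the order of both tissues, 26 differed by no more than the larger of their SDs. The siliques began with heated Lumen at 7 DAF of season 2 (9.25 ± 1.71) and ended with Control Lumen at 14 DAF of season 1 (1.33 ± 0.58). The blocks of season and time were not fully separate. In seeds heated Solar at 7 DAF and Control Solar at 14 DAF of season 1 both averaged 3.00, and in siliques Control Solar at 7 DAF of season 1 (4.00 ± 3.46) stood above heated Lumen at 14 DAF of season 2 (3.75 ± 2.06).

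Between tissues, ABI4 averaged 5.98 ± 3.92 in seeds and 4.64 ± 2.73 in siliques (n = 56 each), with lowest, median and highest values of 1, 5 and 16 in seeds and 1, 4 and 11 in siliques. The difference was 0.27 ± 0.09 (interval 0.08 to 0.46, adjusted p = 0.00668), in a comparison where 85.6% of 60177 genes were called. The median gene was itself higher in seeds by 0.24. After rescaling the libraries by the median ratio of their genes, the difference of ABI4 was 0.036 with adjusted p = 0.729, so a level particular to seeds was not shown. The tissues were not shown to differ in the response of ABI4 to any factor. The tissue by heat term was −0.31 (interval −0.69 to 0.07, adjusted p = 0.447, 1.79% of genes called) and the tissue by season term 0.33 (interval −0.04 to 0.71, adjusted p = 0.265, 5.56% called). The tissue by hybrid term was 0.07 (interval −0.30 to 0.45, adjusted p = 0.847, 11.7% called) and the tissue by time term −0.09 (interval −0.47 to 0.28, adjusted p = 0.762, 22.2% called).

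ABI4 was next set beside the other 9 hub transcription factors that the study named. The study chose all 10 from seed libraries of 7 DAF, which are among those used here, so their seed values at 7 DAF are a description and not independent evidence. The hubs of its own module were PHL2, a MYB-type factor known in Arabidopsis from phosphate starvation, INO1, named after INNER NO OUTER, which shapes the outer layer of the ovule in Arabidopsis, SEP3, a MADS-box factor of floral organ identity, and MYC67. The hubs of the second module were NGA1, a factor of style and leaf growth in Arabidopsis, ARF2, an auxin response factor that restrains organ and seed size in Arabidopsis, OSX2, BnaC05g51140D and BnaA06g29050D.

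In seeds the 5 hubs of its module were higher in season 2 and the 5 hubs of the second module lower, and ABI4 had the largest difference of the 10. The other hubs of its module were higher in season 2 by 0.67 ± 0.09 (INO1), 0.57 ± 0.06 (SEP3), 0.41 ± 0.06 (MYC67) and 0.12 ± 0.04 (PHL2). The hubs of the second module differed by −1.15 ± 0.15 (NGA1), −0.62 ± 0.05 (BnaC05g51140D), −0.60 ± 0.05 (ARF2), −0.52 ± 0.04 (OSX2) and −0.38 ± 0.04 (BnaA06g29050D). All 10 were called over both times together, where 27.3% of all genes were. These libraries include those of 7 DAF that chose the hubs, in which the modules had opposite correlations with seed number and seed weight. The split of signs is thus not independent of that choice. Nothing is read from it, from the count called or from the rank of ABI4 among the hubs.

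Seeds at 14 DAF did not enter the network, but they came from the same 2 seasons and field experiments as those at 7 DAF. Their season differences are therefore no independent check of the hubs. There 11.9% of genes were called for season, and 8 of the 10 hubs were: ABI4 (1.26), MYC67 (0.39) and SEP3 (0.34) were higher in season 2, and all 5 of the second module were lower, by −0.23 to −0.96. INO1 averaged 16.3 ± 4.44 in season 2 and 12.9 ± 2.27 in season 1 (adjusted p = 0.0744), and PHL2 46.3 ± 2.14 in season 2 and 43.3 ± 3.31 in season 1 (adjusted p = 0.163). At 7 DAF 16.8% of genes were called and 9 of the 10 hubs, with PHL2 the exception (adjusted p = 0.0282).

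Siliques were also outside the network, though of the same 2 seasons and field experiments. There 15.2% of genes were called for season, and 2 of the 9 hubs tested were, a share near that of all genes: ABI4 (1.01) and OSX2 (−0.22 ± 0.06, adjusted p = 0.00313) passed, 7 hubs did not, and INO1, with a mean of 0.339, was too low to test. NGA1, which had the largest negative difference in seeds, had 0.26 ± 0.13 in siliques (adjusted p = 0.134). Of the 10 hubs ABI4 alone was called higher in season 2 in both tissues, a statement about this list and its threshold only.

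**Figure D4:**
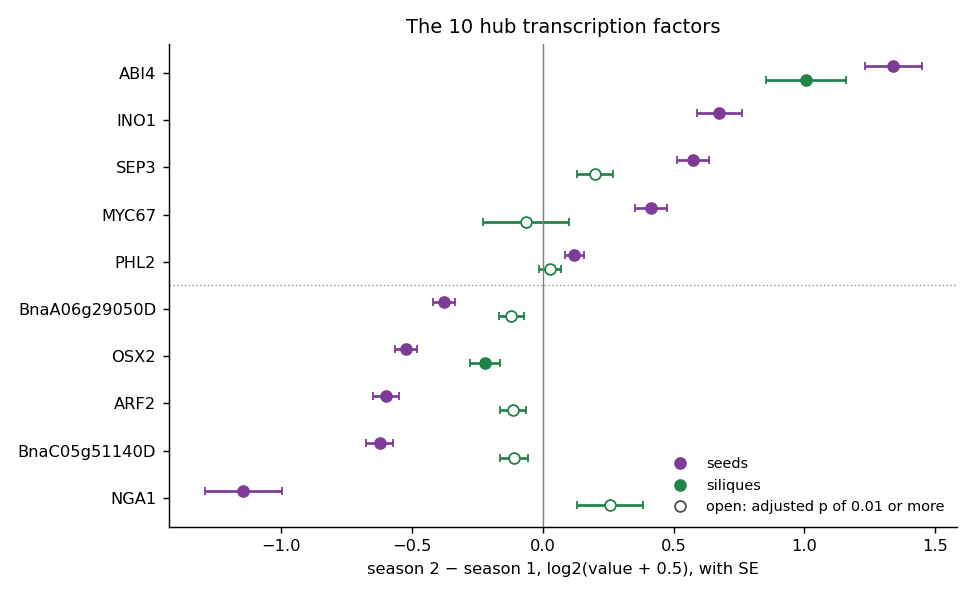
Season difference (season 2 minus season 1, log2(value + 0.5), with SE) of the 10 hub transcription factors in seeds (purple) and siliques (green), with ABI4 and its module above the dotted line and the second module below it. Filled points have an adjusted p below 0.01. In seeds the 5 hubs of each module lie on opposite sides of 0, from 1.34 (ABI4) to −1.15 (NGA1). The hubs were picked from seed libraries that are among those used, so nothing is read from this split. In siliques only ABI4 and OSX2 are filled, and INO1 was not tested.

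Time and heat divided the hubs of its module differently. In seeds SEP3 fell by 0.57 at 14 DAF and MYC67 rose by 0.50, while INO1 (−0.18, adjusted p = 0.075) and PHL2 (0.01) did not pass. Time called 37% of all genes tested in seeds. Of the second module, NGA1 (−0.66, adjusted p = 0.000255) and ARF2 (−0.60, adjusted p = 9.38e-14) also fell at 14 DAF, and its other hubs did not pass. Under heat SEP3 was the only 1 of the 10 hubs called in seeds, at −0.45 ± 0.06 (adjusted p = 6.98e-06), in a comparison that called 1.64% of genes. ARF2 had −0.20 ± 0.05 (adjusted p = 0.0138) and ABI4 −0.23, and neither passed.

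Genes most like ABI4 were ranked by Pearson's r of log2(value + 0.5) over the 56 libraries of a tissue, among genes with a mean of at least 5 (29488 in seeds and 28787 in siliques). These libraries share season, time and sequencing, so the coefficients describe a common pattern and carry no test. In seeds the first was BnaC03g35680D, with r = 0.94 and Spearman's rho = 0.94, and the next BnaA08g22880D, with r = 0.92. Both were higher in season 2 and lower at 14 DAF. BnaC03g35680D was an abundant transcript, with a mean of 1477 ± 457 in season 2 and 709 ± 207 in season 1 in seeds.

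With the mean of each condition taken off, r with BnaC03g35680D was 0.81 in seeds, from the same libraries that picked it. In siliques, whose values played no part in picking it, r was 0.87 (rank 5 of 28787) and 0.70 with condition means taken off (rank 12). Siliques were of the same seasons, times and field experiments as the seeds, so these values are no independent check of the pair. Plot and library effects common to both genes were not tested. For each 1000 units of BnaC03g35680D there were 4.85 ± 1.38 units of ABI4 in seeds (range 1.98 to 7.78) and 5.29 ± 1.96 in siliques (range 1.94 to 12.4). By season this proportion averaged 5.45 ± 1.17 in season 2 and 4.06 ± 1.24 in season 1 in seeds. In siliques the proportion averaged 5.78 ± 2.18 in season 2 and 4.63 ± 1.40 in season 1. ABI4 is its numerator and was rounded to whole units, so nothing is read from these differences. Whether the transcripts of the 2 genes share sequence was not tested.

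**Figure D5:**
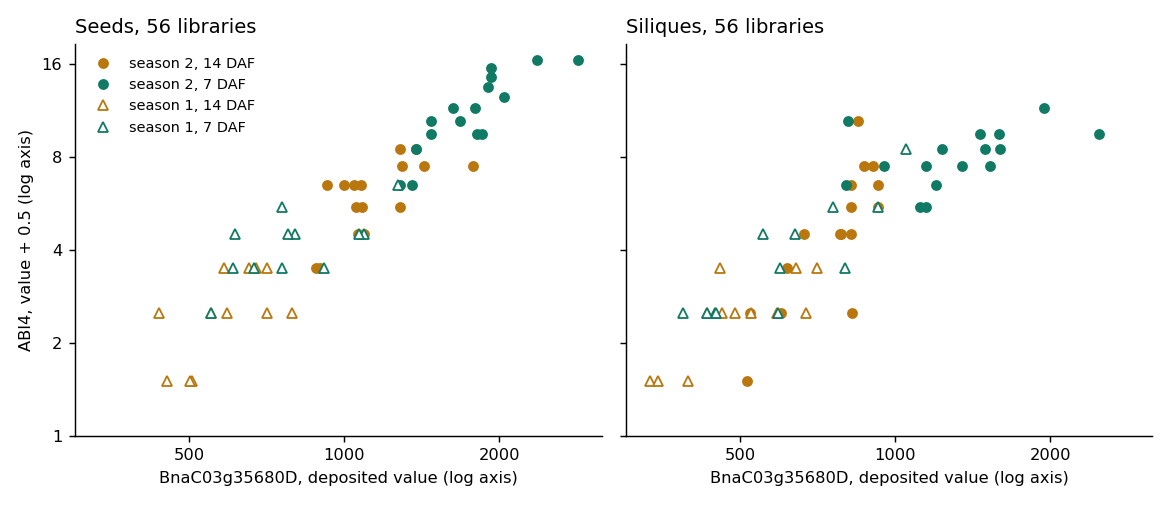
ABI4 (value + 0.5, log axis) against BnaC03g35680D (deposited value, log axis) in 56 seed libraries (left) and 56 silique libraries (right), 1 point a library. Colours give 14 and 7 DAF and filled circles and open triangles give season 2 and season 1. The points follow a single band in seeds (r = 0.94), with more scatter in siliques (r = 0.87).

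In siliques the genes most like ABI4 were BnaA09g56510D (r = 0.89, mean 16.7) and BnaA03g20240D (r = 0.89, mean 21.8), with r = 0.76 and r = 0.74 after condition means were taken off. The genes most opposite to ABI4 were BnaC03g44430D (r = −0.87) and BnaA07g11520D (r = −0.84) in seeds, and BnaC03g19650D (r = −0.85) and BnaA04g20710D (r = −0.78) in siliques. BnaA07g11520D averaged 71.7 in season 2 and 155 in season 1 in seeds.

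Of the 3 identifiers on either side of ABI4 on A03, only 2 in each tissue passed the filter, and none of those was called for season. Over all genes tested, season called 27.3% in seeds and 15.2% in siliques, so nothing is read from so small a count. BnaA03g19000D, the best expressed of them with a mean of 5.25 in seeds and 8.75 in siliques, had a season difference of 0.09 in seeds (adjusted p = 0.472) and 0.00 in siliques (adjusted p = 0.979). BnaA03g18950D had −0.44 in seeds (adjusted p = 0.0161) and BnaA03g18980D 0.11 in siliques (adjusted p = 0.717). BnaA03g19000D was instead lower in Lumen than in Solar, by −1.33 in seeds (adjusted p = 3.76e-16) and −1.20 in siliques (adjusted p = 4.04e-20), a factor for which ABI4 was not called. A hybrid call was common, with 36.9% of genes in seeds and 36.8% in siliques.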

How the data were processed

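RNA-seq of 56 seed and 56 silique libraries was analysed from the table deposited by the authors, who pseudoaligned reads with kallisto (version 0.46 per the labels) to the AST_PRJEB5043_v1 annotation and normalized with sleuth. The deposited values are treated as a score, because they are whole numbers of unstated scaling, with sums close to those of TPM, rather than read counts, and the rounding is therefore part of the data. Columns were matched to samples by their labels. Of the gene identifiers, 0 matched the RefSeq table, so the symbol ABI4 comes from the study. The test covered genes that reached a value of 1 in 47% or more of a tissue's libraries. Values were taken as log2(value + 0.5), with a pseudocount of 0.5, and limma 3.58.1 (R 4.3.3) was run with an intensity trend on heat, hybrid, time, season and their interactions, with 40 residual degrees of freedom a tissue; a joint model added tissue. Calls needed an adjusted p below 0.01. The scripts were tested on simulated data. ABI4 alone was also tested by permutation within conditions (100000 resamples, scipy 1.17.1 and numpy 2.4.6) and by exact permutation tests in single conditions, two-sided.

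Named genes were ABI4, the 9 other hub factors the study named, the 3 identifiers on either side, and per tissue the 2 genes most like ABI4 and the 2 most opposite to it. These members and lists were chosen with earlier results of these data known. Replicates are field samples of a condition; the study's methods name a separate plot for each, yet a layout of 3 replicates in season 2, where 4 libraries a condition were sequenced. The deposited values are normalized and rounded and cannot be turned back into counts, so no counting interval is given. Alternatives were other pseudocounts, filters, rescaling by median ratios, a model without interactions, a replicate block, each season alone, omission of the 2 libraries whose pseudoaligned share was under 65%, and each replicate left out in turn.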

Additional observations from a re-analysis of the deposited data

Results flagged for a closer look

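Of 16 conditions with 4 libraries, 2 had a library whose gap to the others exceeded Dixon's 95% critical value for a group of that size, and chance alone marks about 1 in 20 groups. Control Lumen seeds at 14 DAF of season 2 had a library at 8 beside 6, 6 and 6. Control Solar seeds at 14 DAF of season 2 had a library at 6 beside 5, 5 and 5. Because values were rounded to whole numbers, the other 3 libraries were tied and the gap filled the whole range (ratio 1.0) in both. The gap in the second was 1 unit, the smallest the scale holds.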

How the results depend on the processing

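The season difference of ABI4 kept its direction and its call under 14 alternatives in seeds (0.71 to 1.38) and 12 in siliques (0.50 to 1.13), the lowest with a pseudocount of 5. The time difference in seeds did so under 17 (−0.90 to −0.44), and in siliques it was −0.62 (adjusted p = 0.0575) in season 1 alone. The heat difference in seeds passed under none of 17 alternatives (−0.32 to −0.11, adjusted p 0.0739 to 0.608), with an unadjusted p of 0.0432 as reported. The hybrid difference in seeds was 0.10 in season 2 alone, opposite to the −0.08 reported. Leaving out a replicate moved the heat difference in siliques between −0.022 and 0.28, turning its sign without season 1 replicate 1 or 2. The difference of seeds from siliques was 0.27 with adjusted p = 0.0106 without a filter, 0.036 after median-ratio rescaling and 0.10 in season 1 alone, and 0.21 to 0.32 with a replicate left out, where it lost its call without replicate 1 or 2 of either season. Same-numbered libraries did not deviate together in every pair (correlations −0.30 to 0.37 within tissues), although 48 of 56 seed libraries correlated best with the silique library of their own number. Within a tissue the block was the replicate number within season, shared by all conditions of that season, so it did not match libraries by plot. With it, ABI4 differed by −0.23 (heat), −0.08 (hybrid) and −0.82 (time) in seeds and by 0.08, −0.15 and −0.73 in siliques. Between tissues the block was each combination of hybrid, treatment, season and replicate number, and the limma difference was 0.27 (adjusted p = 0.00856). No call changed under either block. Both blocks are nested in season, so they gave no season value, and ABI4 failed the filter of at least 5 in siliques. Rounding to whole units limits all values below about 3.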
